A study of Mus musculus with 12 samples.

Results

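Peroxisomes shorten very-long-chain, branched and bile acid side chains, and pass the products on as acyl-CoA, free acid or acylcarnitine. The 10 genes described here encode enzymes of that work in mouse liver: Nudt7, Nudt19, Acot8, Crat, Crot, Scp2, Acaa1a, Acaa1b, Acox2 and Hsd17b4. They were chosen by name, as the genes to which probe sets of the deposited expression table are annotated. The choice was made with earlier results of these data known. All 10 were found, each with 1 probe set that is annotated to no second gene, among 19938 genes represented by 1 probe set each.

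Liver RNA of 12-week-old 129Sv mice, fasted for 24 h before killing, was hybridised to 12 Affymetrix arrays. Wild-type mice and mice labelled SIRT3KO, a knockout of the mitochondrial deacetylase SIRT3, were kept on a standard diet or weaned onto a Western diet with 42% fat. The 4 groups were wild type on the standard diet, knockout on the standard diet, wild type on the high-fat diet and knockout on the high-fat diet, with 3 arrays each. Sex, the way the knockout was made, and whether each array is a separate animal are not in the labels, so p-values measure the spread between these arrays. Whole liver was used, and in such samples fewer cells of a type and less RNA per cell cannot be told apart.

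In the beta-oxidation cycle of the peroxisome, an acyl-CoA oxidase makes the first double bond and a bifunctional protein hydrates and oxidises it. A thiolase then cuts off acetyl-CoA or propionyl-CoA. Coenzyme A does not leave the organelle freely, and the acyl groups leave as carnitine esters or as free acids, while nudix hydrolases break down coenzyme A itself. Several genes of the pathway are classical targets of PPAR-alpha, the fasting-activated nuclear receptor of liver.

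The genes fall into 4 roles. Nudt7 and Nudt19 are nudix hydrolases that split coenzyme A and its esters, Nudt7 being the liver enzyme and Nudt19 known best from mouse kidney. Acot8 hydrolyses acyl-CoA to free acid, and the carnitine acyltransferases Crat, for acetyl groups and shared with mitochondria, and Crot, for octanoyl groups, make the carnitine esters. Acox2 oxidises branched-chain and bile acid intermediates and Hsd17b4 is the D-bifunctional protein. Acaa1a and Acaa1b are the straight-chain thiolases, and the Scp2 locus encodes both a branched-chain thiolase and sterol carrier protein 2.

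Promoter windows were read from RefSeq (GRCm38.p6) for the members, leaving out any on a withheld chromosome. Of the 10 genes, 8 had a window in the set used here, and Crat and Hsd17b4 did not. The 250 bases before the start of Nudt7, Acot8 and Acaa1b are printed because these genes passed the diet test, and those of Acaa1a because it is the paralog of Acaa1b. Capitals mark the GC box GGGCGG and the CCAAT box CCAAT on either strand, so that CCGCCC and ATTGG are the same motifs read from the other strand. The windows lie at chr8:114133368-114133617 (plus strand) for Nudt7, chr2:164804882-164805131 (minus strand) for Acot8, chr9:119341044-119341293 (plus strand) for Acaa1a and chr9:119157094-119157343 (minus strand) for Acaa1b, each written 5′ to 3′ along its gene.
Nudt7: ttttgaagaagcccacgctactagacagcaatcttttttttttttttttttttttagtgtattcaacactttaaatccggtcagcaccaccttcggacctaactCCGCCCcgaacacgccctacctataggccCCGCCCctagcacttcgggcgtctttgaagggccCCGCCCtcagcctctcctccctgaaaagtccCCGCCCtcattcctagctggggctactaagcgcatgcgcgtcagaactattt
Acot8: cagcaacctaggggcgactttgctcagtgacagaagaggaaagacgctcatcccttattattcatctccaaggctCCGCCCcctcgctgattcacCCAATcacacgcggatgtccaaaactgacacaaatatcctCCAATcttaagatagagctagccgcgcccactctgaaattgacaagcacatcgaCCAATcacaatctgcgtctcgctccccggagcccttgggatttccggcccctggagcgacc
Acaa1a: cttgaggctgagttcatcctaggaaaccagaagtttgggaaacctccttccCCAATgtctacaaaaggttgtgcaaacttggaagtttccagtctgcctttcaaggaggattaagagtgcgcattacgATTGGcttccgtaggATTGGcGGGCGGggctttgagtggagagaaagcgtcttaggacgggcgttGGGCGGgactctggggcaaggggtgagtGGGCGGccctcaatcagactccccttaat
Acaa1b: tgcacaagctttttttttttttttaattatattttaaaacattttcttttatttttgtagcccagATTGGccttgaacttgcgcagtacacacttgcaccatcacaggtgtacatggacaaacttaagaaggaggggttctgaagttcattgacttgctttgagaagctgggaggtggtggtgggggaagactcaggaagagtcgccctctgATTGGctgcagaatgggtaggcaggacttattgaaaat
The Nudt7 window held 4 GC boxes and 0 CCAAT boxes. The Acot8 window held 1 GC box and 3 CCAAT boxes. Acaa1a had 3 of each, whereas its paralog Acaa1b had 0 GC boxes and 2 CCAAT boxes. Some genes have more than 1 window: the 8 members have 10, and those of Nudt7 and of Acox2 overlap. Over all 32851 windows of the table, 32.7% held a GC box and 33.8% a CCAAT box, against 6 and 5 of the 10 member windows. The sequence AGGTCA, the core of nuclear receptor sites, was in 14% of all windows and in 1 of the 10, that of Scp2. These matches describe letters only, and no binding was measured.

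Sirt3 was measured first as a check of the labels. On the standard diet its levels were 8.97, 9.04 and 9.13 (log2) in wild type and 8.83, 8.94 and 8.95 in the knockout, and on the high-fat diet 9.29, 9.14 and 9.13 against 8.92, 8.49 and 8.87. The groups did not overlap on either diet, but the differences of -0.14 (SE 0.11) and -0.42 (SE 0.11) were not called. The loss of Sirt3 is therefore taken from the labels, since these values do not establish it. The place of the probe set relative to the deleted part is not given in the sources used here. Knockout standard-diet replicate 1 stood apart from the other arrays of its diet: its mean over 16 male-biased liver genes was -1.35 against the wild-type mean, with -0.19 and -0.28 on the other knockout arrays. Its mean over 10 female-biased genes was 1.41, against -0.03 and -0.02, and its acute-phase mean (20 genes) was 1.58 against 0.10 and 0.11. High-fat wild-type replicate 3 had the highest macrophage mean of its group (0.33 over 8 genes). Over 10 hepatocyte markers the array means lay between -0.10 and 0.07. Values of the 2 diets appear to come from separate normalization runs: 335 probe sets lack values on all standard-diet arrays only, and pairs of arrays of different diets shared a median of 0 identical values, against 20 and 7 within the diets. The labels name no run, and diet and such a run cannot be told apart.

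Nudt7 had the largest difference of the 10 genes in each of the 7 comparisons. On the standard diet its levels were 10.21, 10.76 and 10.47 in wild type and 9.40, 9.78 and 9.69 in the knockout. All 3 knockout arrays lay below all 3 wild-type arrays, a difference of -0.86 (SE 0.18), or 1.81-fold lower. It ranked 11 among all genes by p (unadjusted p = 0.00032), yet it was not called (limma adjusted p = 0.485). On the high-fat diet its levels were 11.20, 11.31 and 10.70 in wild type and 11.01, 10.42 and 10.91 in the knockout. These groups overlapped, with a difference of -0.29 (SE 0.18, limma adjusted p = 1). It was -0.11 without knockout replicate 2 and -0.47 without wild-type replicate 3.

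**Figure D1:**
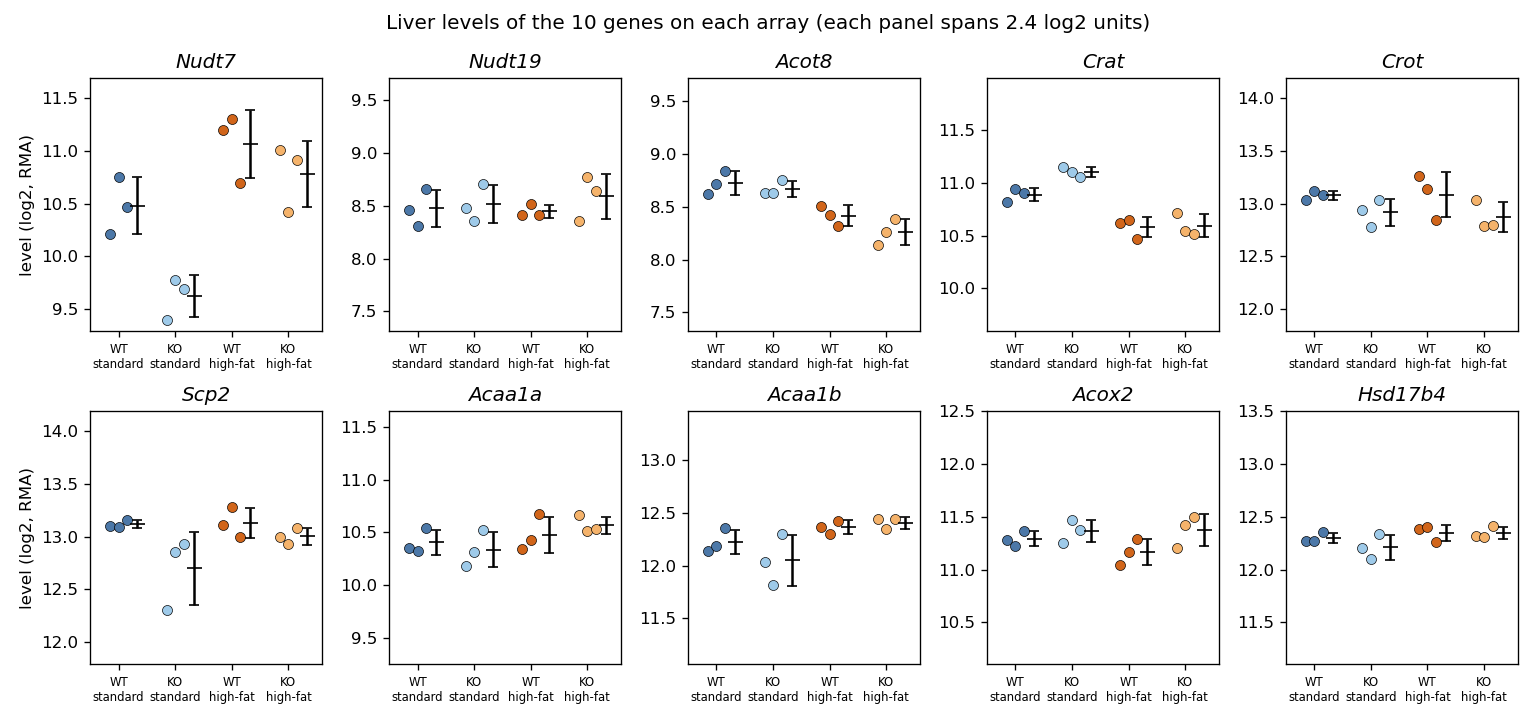
Level (log2, RMA) of each of the 10 genes on each of the 12 arrays, by group, with WT for wild type and KO for knockout; bars beside the points are the mean and SD of 3 arrays, and every panel spans 2.4 log2 units. The 3 Nudt7 points of the knockout on the standard diet (9.40 to 9.78) lie below every other Nudt7 point.

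Scp2 followed Nudt7 on the standard diet. Its levels were 13.10, 13.09 and 13.16 in wild type and 12.30, 12.86 and 12.93 in the knockout, again without overlap. The difference of -0.42 (SE 0.13, limma adjusted p = 0.502) depended on knockout replicate 1, the array that stood apart, and was -0.22 without it, whereas that of Nudt7 was -0.74. The part of the male-biased, female-biased and acute-phase genes of that array in these differences was not tested. On the high-fat diet Scp2 stood at 13.11, 13.28 and 13.00 in wild type and at 13.00, 12.93 and 13.08 in the knockout, and the difference was -0.13 (SE 0.13).

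Crat went the other way on the standard diet. Its levels were 10.82, 10.94 and 10.91 in wild type and 11.15, 11.10 and 11.06 in the knockout, so that the knockout arrays were all higher, by 0.21 (SE 0.08, limma adjusted p = 0.502). On the high-fat diet the groups overlapped and differed by 0.02 (SE 0.08). Crot was lower in the knockout on the standard diet by -0.16 (SE 0.11) at 13.04, 13.12 and 13.08 against 12.94, 12.78 and 13.04, and the highest knockout array stood just under the lowest wild-type array.

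Of the 10 genes, 0 were called between genotypes on the standard diet (limma, 0.00502% of all genes called), on the high-fat diet (0%) or averaged over the diets (0%). At an unadjusted p under 0.05 stood 3, 1 and 3 of them, among 1939, 571 and 1323 of all genes. Groups did not overlap for 4 of the 10 on the standard diet, where 14.4% of all genes did not overlap, and for 0 on the high-fat diet, against 6.68%. Averaged over both diets, Nudt7 was lower in the knockout by -0.57 (SE 0.13), Scp2 by -0.27 (SE 0.09; -0.18 without knockout standard-diet replicate 1) and Crot by -0.19 (SE 0.08), and Acox2 was higher by 0.14 (SE 0.07).

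**Figure D2:**
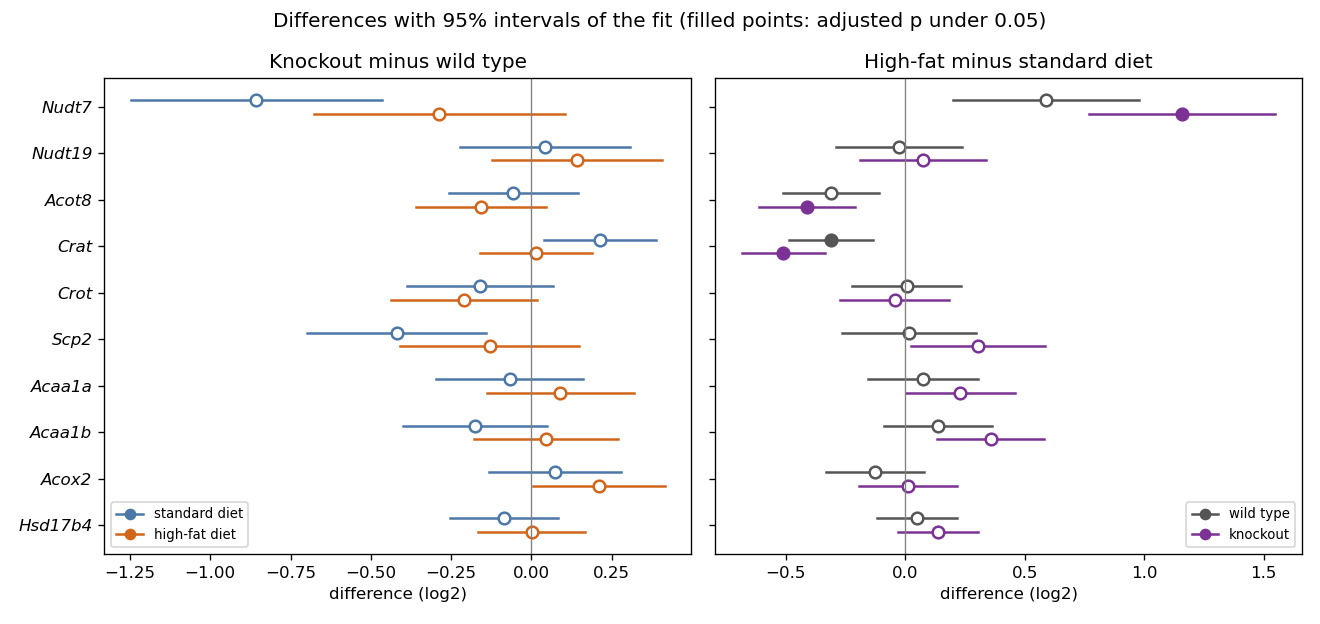
Difference (log2) of each gene between genotypes on each diet (left) and between diets in each genotype (right), with 95% intervals of the limma fit; filled points have an adjusted p under 0.05. No genotype point is filled; Nudt7, Acot8 and Crat are filled for the knockout and Crat for wild type.

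With diet, Nudt7 rose. In the knockout its 3 high-fat arrays all lay above its 3 standard-diet arrays, given above, by 1.16 (SE 0.18, 2.23-fold, limma adjusted p = 0.00366). In wild type the arrays overlapped, because high-fat replicate 3 (10.70) was under standard-diet replicate 2 (10.76), and the difference of 0.59 (SE 0.18) was not called (limma adjusted p = 0.0715). It was called in 1 of the 12 fits without 1 array, at 0.77 without high-fat wild-type replicate 3 (limma adjusted p = 0.0297), and was smallest, 0.46, without standard-diet wild-type replicate 1 (limma adjusted p = 0.229). The difference between these diet effects, 0.57 (SE 0.26), was not called (unadjusted p = 0.044, limma adjusted p = 0.945), and 0 of the 10 genes and 0% of all genes were called in that interaction. Averaged over genotypes the high-fat arrays were 1.83-fold higher (0.87, SE 0.13, limma adjusted p = 0.000571).

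Crat fell with the high-fat diet in both genotypes. Its high-fat levels were 10.62, 10.65 and 10.47 in wild type and 10.72, 10.54 and 10.52 in the knockout, below every standard-diet array of the same genotype. The differences were -0.31 (SE 0.08, limma adjusted p = 0.0392) in wild type and -0.51 (SE 0.08, limma adjusted p = 0.00396) in the knockout. The wild-type call ended without any 1 of the 6 wild-type arrays, with adjusted p between 0.0552 and 0.143, and without high-fat knockout replicate 2 (0.0536).

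Acot8, the thioesterase, also lay lower on the high-fat diet. Its levels in wild type were 8.62, 8.71 and 8.84 on the standard and 8.51, 8.42 and 8.32 on the high-fat diet. In the knockout they were 8.63, 8.63 and 8.76 against 8.14, 8.26 and 8.38. Neither genotype's diets overlapped. It fell in the knockout (-0.41, SE 0.09, limma adjusted p = 0.0235) and averaged over genotypes (-0.36, SE 0.07, limma adjusted p = 0.00255). The difference in wild type, -0.31 (SE 0.09), did not pass (limma adjusted p = 0.0671). The knockout call ended without standard-diet knockout replicate 1 (limma adjusted p = 0.0512), 2 (0.0522) or 3 (0.0517), or high-fat knockout replicate 1 (0.0634) or 2 (0.0795).

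Acaa1b, the thiolase known in rodents for its induction by peroxisome proliferators, rose in the average over genotypes by 0.25 (SE 0.07, 1.19-fold, limma adjusted p = 0.0336). On the standard diet its levels were 12.13, 12.19 and 12.36 in wild type and 12.03, 11.82 and 12.30 in the knockout, and on the high-fat diet 12.37, 12.30 and 12.43 and 12.44, 12.34 and 12.44. The knockout groups did not overlap and the wild-type groups did. The call held in 4 of the 12 fits that left out 1 array each, with adjusted p between 0.00548 and 0.0833. Its paralog Acaa1a, on the same chromosome with 4 protein-coding genes between them, was 0.15 (SE 0.08) higher and not called. The deposited values do not show how far probes of such similar genes share signal.

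In wild type, 0 of the 10 genes were called higher on the high-fat diet and 1 lower, against 4.3% and 1.69% of all genes. In the knockout, 1 was called higher and 2 lower, against 2.45% and 2.66% of all genes. Averaged over genotypes, 2 were called higher and 2 lower, against 10.3% and 7.69%. Groups did not overlap for 2 members in wild type, where 30.3% of all genes did not overlap, and for 4 in the knockout, against 23.8%. A variance for an offset between the apparent runs was then added, estimated over 1231 olfactory, vomeronasal and taste receptor genes (SD 0.21). With it, 0 of these calls remained, and Nudt7 had adjusted p = 0.941 in the average. Over all genes that setting left 7 calls in wild type, 5 in the knockout and 9 in the average. Whether an offset estimated on the receptor genes holds at the levels of the 10 genes (8.14 to 13.28) was not tested. Without the added variance, 283 of the 1231 receptor genes (23%) were called with diet in the average.

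The other 6 genes did not pass in any diet comparison. Averaged over genotypes, Scp2 differed by 0.16 (SE 0.09), and by 0.06 without knockout standard-diet replicate 1. Hsd17b4 differed by 0.09 (SE 0.06), Nudt19 by 0.03 (SE 0.09), Crot by -0.02 (SE 0.08) and Acox2 by -0.06 (SE 0.07). Over all 12 arrays the level of Nudt19 lay between 8.31 and 8.78, and that of Hsd17b4 between 12.10 and 12.42.

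**Figure D3:**
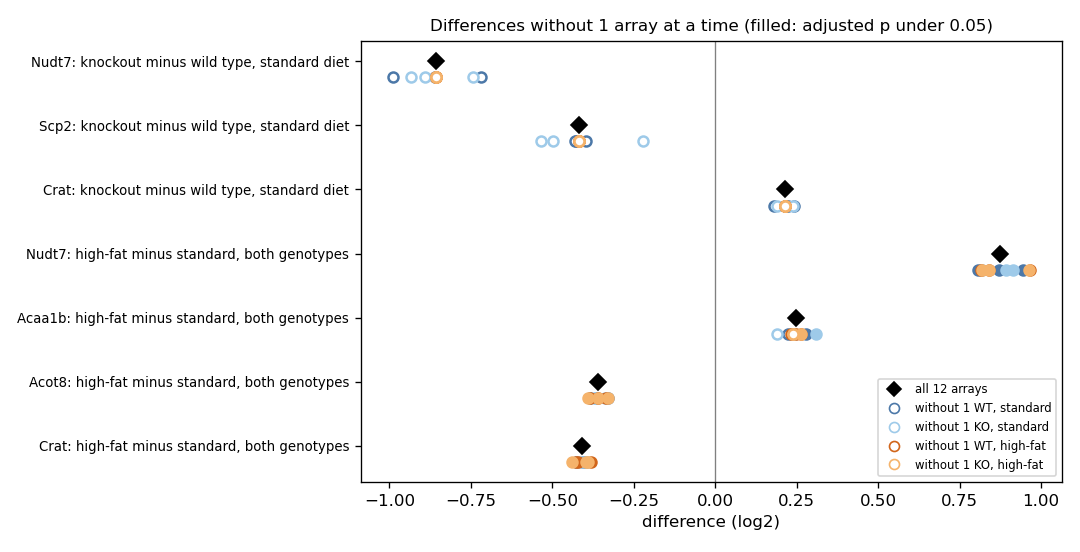
Difference (log2) for 7 results with all 12 arrays (diamonds) and without 1 array at a time (circles, coloured by the group of the array left out, filled where the adjusted p was under 0.05). All circles of Nudt7, Acot8 and Crat for diet are filled, 4 of the 12 for Acaa1b are, and those for genotype are open.

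After the mean of each diet was subtracted, 45 pairs of genes were compared across the 12 arrays, with permutation within the diets, which leaves genotype differences in the values. By both Pearson and Spearman 2 pairs passed after adjustment. Nudt7 and Scp2 varied together (r = 0.81, rho = 0.83, permutation p = 0.00165 and 0.00128, adjusted p = 0.0407 and 0.0441). The value was 0.82 on the standard and 0.86 on the high-fat arrays, 0.81 without the 2 arrays farthest in Nudt7, 0.84 without knockout standard-diet replicate 1, and 0.57 after the mean of each of the 4 groups was subtracted. Crot and Acox2 went in opposite directions (r = -0.86, rho = -0.83, permutation p = 0.00181 and 0.00417, adjusted p = 0.0407 and 0.0483). That value was -0.62 on the standard and -0.94 on the high-fat arrays, -0.77 without the 2 farthest arrays and -0.81 after group means. By Spearman alone Nudt7 with Crot (rho = 0.78, r = 0.68, permutation p = 0.00196 and 0.00775, adjusted p = 0.0441 and 0.116) and Acaa1a with Acaa1b (rho = 0.83, r = 0.65, permutation p = 0.00429 and 0.0221, adjusted p = 0.0483 and 0.166) also passed. Without the 2 farthest arrays their r was 0.74 and 0.53, and after group means it was 0.57 and 0.64. Within the standard and high-fat arrays r was 0.67 and 0.84 for Nudt7 with Crot and 0.74 and 0.70 for the thiolases.

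**Figure D4:**
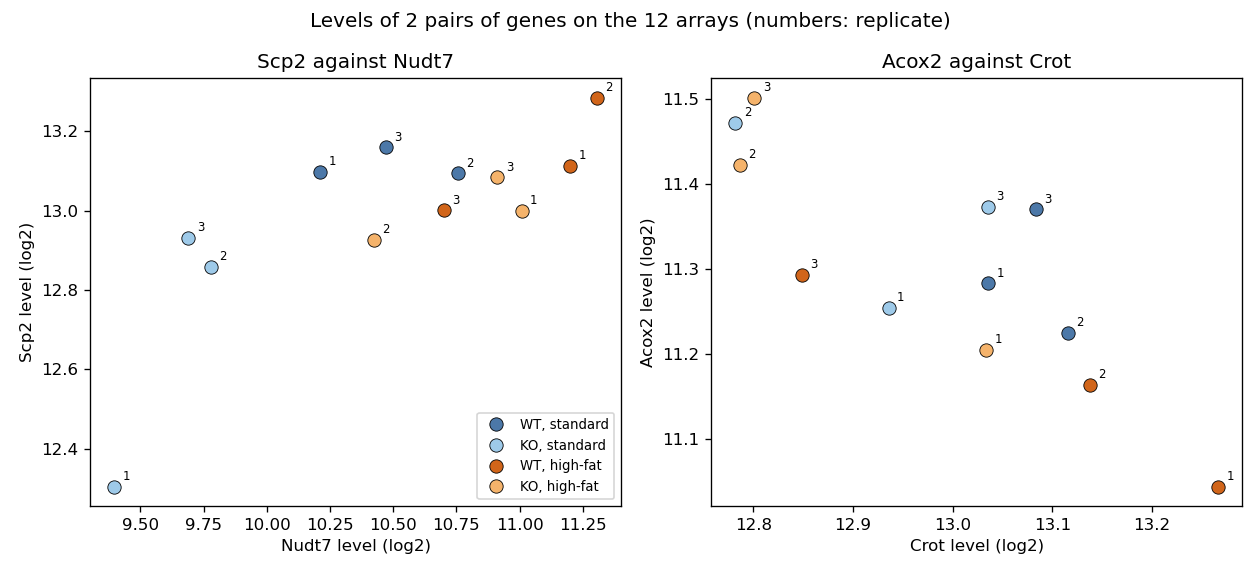
Level (log2) of Scp2 against Nudt7 (left) and of Acox2 against Crot (right), 1 point per array, coloured by group and numbered by replicate. Scp2 is higher where Nudt7 is, with knockout standard-diet replicate 1 lowest in both (9.40 and 12.30), and Acox2 is lower where Crot is higher.

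Genes most like each member over the 12 diet-centred arrays were listed among 9968 genes of at least median level, as a description. Nudt7 varied most like Plekha5 (r = 0.97) and the carboxylesterase Ces3b (0.97), followed by Hps4, Pms1 and Ddx55. Scp2 varied most like Ces3a (0.96), with the complement component C6, Dpy19l1, Mup21 and Rsl1d1 next. Acaa1b was most like Decr1, the mitochondrial dienoyl-CoA reductase (0.92), and Acox2 most like Mthfd1 (0.96). Knockout standard-diet replicate 1 is among the arrays behind each value.

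The wider peroxisomal and coenzyme A lists were counted in the same fit. In these counts, rose and fell mean called by limma at adjusted p under 0.05. In the average over genotypes, 10.3% of all genes rose and 7.69% fell. Of 22 other genes of peroxisomal oxidation, 0 rose and 2 fell in the average over genotypes: Ech1, a dienoyl-CoA isomerase (-0.33, SE 0.06, limma adjusted p = 0.00213), and Baat, which joins bile acids to amino acids (-0.33, SE 0.07, limma adjusted p = 0.00809). The list median was 0.01, the same as over all genes (0.01). Of 23 other peroxisomal enzymes and membrane proteins, 3 rose and 4 fell. Ddo, D-aspartate oxidase, rose by 0.53 and urate oxidase, Uox, by 0.46. Among those that fell were Pxmp4, a membrane protein (-0.58), and Agxt, alanine-glyoxylate aminotransferase (-0.54).

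The next counts stand beside the same shares of all genes, 10.3% higher and 7.69% lower. Of 16 peroxisome assembly genes, 0 rose and 2 fell, Pex11a (-0.31), which acts in peroxisome division, and Pex19 (-0.24), a membrane protein import receptor. Of 12 coenzyme A synthesis and transport genes, 1 rose, the pantetheinase Vnn1 (0.43, SE 0.13). Of 10 genes of the mitochondrial carnitine shuttle and thioesterases, 1 fell, Cpt2 (-0.24, SE 0.05). Of 15 PPAR-alpha targets outside the peroxisome (the receptor gene itself included), 2 rose, Vldlr (0.48) and Ppara (0.36), and 2 fell, Pdk4 (-1.27) and Angptl4 (-0.54). Between genotypes, 0 genes of these 6 lists were called on either diet. Of all genes, 0.00502% were called between genotypes on the standard diet and 0% on the high-fat diet. Abcd2, a peroxisomal fatty acyl transporter, had the widest error of the oxidation list, at 1.12 (SE 0.50) in the knockout on the standard diet.

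**Figure D5:**
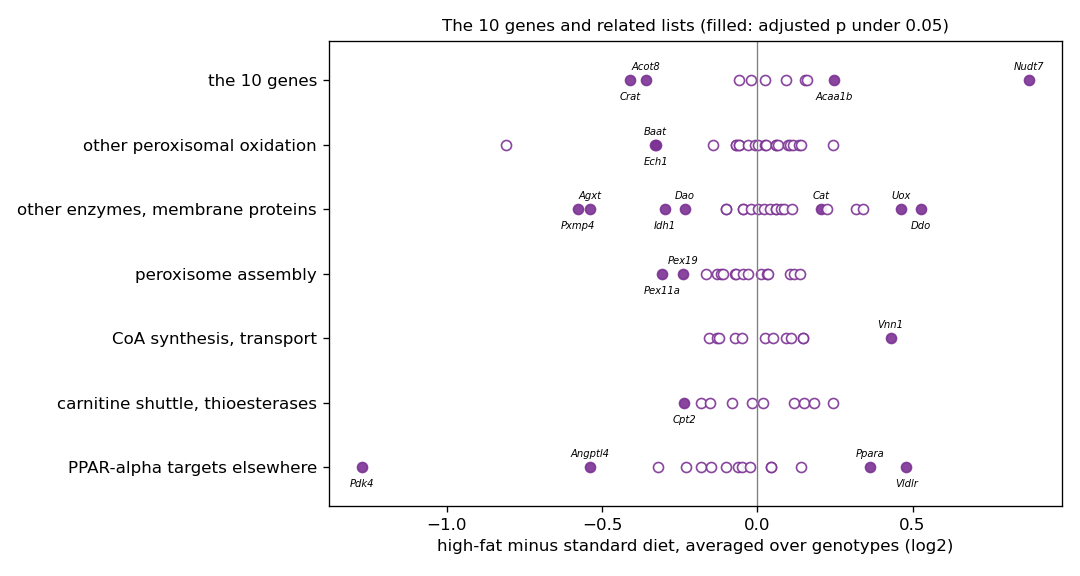
Diet difference averaged over genotypes (log2) of the 10 genes and of each measured gene of 6 related lists, with filled, named points for adjusted p under 0.05. Filled points lie on both sides of 0 for the 10 genes, the other enzymes and membrane proteins and the PPAR-alpha targets, and Pdk4 is farthest out (-1.27).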

How the data were processed

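Liver RNA was measured on 12 Affymetrix arrays, 3 per group, and groups were taken from the labels. The deposited log2 values come from RMA, run by the authors in Affymetrix Expression Console according to the submitters' processing notes; version and options are not given in the sources used here. Of 35557 probe sets, 21789 have 1 gene symbol, 1621 several and 12147 none; symbols were updated through 21698 matched Entrez IDs, and the probe set with the highest mean stood for each of 19938 genes. The values were fitted as deposited with limma 3.58.1 in R 4.3.3 (1 mean per group over 12 arrays, eBayes with trend, 8 residual degrees of freedom), with Benjamini-Hochberg adjustment over all genes, and called at adjusted p under 0.05. Array medians lay between 6.34 and 6.47, and the number of arrays limits the precision. The fit was tested on simulated data. Named genes were all members, Sirt3, up to 4 called genes per list and comparison with the largest difference (otherwise up to 2 with the smallest p), and the 5 genes most like each member. The members and lists were chosen with earlier results of these data known. The labels do not say whether replicate numbers pair samples, and the main fit did not pair them. Alternatives covered moderation, array weights, normalization, filters, thresholds, a replicate block, a variance between runs and leaving out arrays. Figures were drawn with matplotlib 3.10.9.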

Additional observations from a re-analysis of the deposited data

How the results depend on the processing

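With 3 arrays a group, and with diet inseparable from what appear to be separate normalization runs, small differences could not be resolved. The 0 calls of the 10 genes between genotypes, and in the interaction, held under every alternative run. Of the diet calls averaged over genotypes, those of Nudt7, Acot8 and Crat held in each of the 12 fits without 1 array. With a variance between the apparent runs, the counts of called members were 0 in wild type, 0 in the knockout and 0 in the average. The 6 related lists each had 0. The cause of the changes below was not tested. Counts of members called in wild type (1 as reported) were 0 with eBayes without trend, 0 with the replicate block, 3 with array weights and 3 at adjusted p under 0.1, and between 0 and 1 without 1 array. Over all genes the wild-type count moved as well, from 1194 to 1212, 964, 3632 and 2214 in that order. With the replicate block, Crat in wild type had limma adjusted p = 0.0648. Same-numbered samples correlated between -0.21 and 0.29, and the labels do not say whether the numbers pair samples. Crat in wild type also lost its call with quantile normalization (0.0746) and cyclic loess (0.0791), Acot8 in the knockout with the compared groups only (0.0771) and after median centring (0.0525), and Acaa1b in the average after median centring (0.11). Calls were gained by Nudt7 in wild type with array weights (0.0102) and without knockout standard-diet replicate 1 and high-fat wild-type replicate 3 (0.021), by Acot8 in wild type with array weights (0.0374), quantile normalization (0.0284) and cyclic loess (0.0261), and by Acaa1b in the knockout with array weights (0.0296), the replicate block (0.041), cyclic loess (0.0387) and without standard-diet knockout replicate 3 (0.0121). The list counts below are for the average over genotypes, where 3582 of all genes were called. That number was 5264 with array weights, 4156 with quantile normalization and 4249 with cyclic loess. It was 3241 with the replicate block, 3498 after median centring and 5096 at adjusted p under 0.1. Other oxidation genes called (2) became 5 with array weights, 5 with quantile normalization and 5 with cyclic loess, which was chosen after seeing the data. Other enzymes and membrane proteins (7) gave 4 to 7 without 1 array. Coenzyme A genes (1) gave 4 with array weights, 0 after median centring and 0 to 2 without 1 array. Carnitine shuttle genes (1) gave 6 with array weights, 2 with the replicate block, 3 with quantile normalization, 2 after median centring, 3 at adjusted p under 0.1, 4 with cyclic loess, 2 without both knockout standard-diet replicate 1 and high-fat wild-type replicate 3 (also chosen after seeing the data) and 1 to 2 without 1 array. PPAR-alpha targets (4) gave 7 with array weights, 7 with quantile normalization and 8 at adjusted p under 0.1.

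Uncalled differences near 0 turned sign. After median centring these were, between genotypes, Nudt19 (-0.037) and Acox2 (-0.0062) on the standard diet and Acaa1a (-0.021) in the average. With diet in wild type they were Crot (-0.075), Scp2 (-0.065), Acaa1a (-0.0070) and Hsd17b4 (-0.031), in the average Nudt19 (-0.0082), and in the interaction Crot (0.044). With array weights they were Crat (-0.039) and Hsd17b4 (-0.035) between genotypes on the high-fat diet and Crot (0.012) with diet in the average, which was 0.0047 with cyclic loess. With quantile normalization Hsd17b4 on the high-fat diet was -0.0057. Without both of those arrays they were Acaa1a between genotypes on the standard diet (0.010), Crat (-0.039) and Hsd17b4 (-0.043) on the high-fat diet, and with diet Acaa1a in wild type (-0.022), Acox2 in the knockout (-0.046) and Crot in the average (0.044).

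Without 1 array the ranges that crossed 0 were, between genotypes on the standard diet, Nudt19 -0.054 to 0.13, Acot8 -0.11 to 0.0016 and Acaa1a -0.16 to 0.010. On the high-fat diet they were Crat -0.047 to 0.053 and Hsd17b4 -0.043 to 0.027, and in the average Acaa1a -0.034 to 0.059. With diet in wild type they were Nudt19 -0.11 to 0.067, Crot -0.085 to 0.12, Scp2 -0.060 to 0.082 and Acaa1a -0.022 to 0.14. In the knockout they were Nudt19 -0.016 to 0.19, Crot -0.12 to 0.015 and Acox2 -0.052 to 0.096, in the average Nudt19 -0.021 to 0.084 and Crot -0.065 to 0.040, and in the interaction Crot -0.17 to 0.041.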

Other observations

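Within single genotypes, some related genes were called with diet. Of all genes, 4.3% were called higher and 1.69% lower in wild type, and 2.45% higher and 2.66% lower in the knockout. Baat (lower) and Vldlr (higher) were called in wild type only, and Ech1 and Pdk4 (both lower) in the knockout only. A missing call does not show a missing change: Pdk4 differed by -0.96 in wild type, uncalled, and by -1.58 in the knockout. In both genotypes Uox rose (0.44 in wild type and 0.48 in the knockout), and Agxt (-0.44 and -0.64) and Pxmp4 (-0.56 and -0.59) fell. Hao2, a peroxisomal hydroxyacid oxidase, rose in wild type (0.57, SE 0.15, limma adjusted p = 0.0406), with 0.07 (SE 0.15) in the knockout. Ddo rose in the knockout (0.71, SE 0.18, limma adjusted p = 0.0376), with 0.34 (SE 0.18) in wild type. The interaction was called for none of the 19938 genes with limma, with 944 at an unadjusted p under 0.05.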
